A study of Mus musculus with 38 samples.

Results

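10 genes that regulate transcription or RNA in the stem cells of the male germ line were followed through the prepubertal testis of mouse strains that differ in the origin of the X chromosome. They are *Zbtb16*, *Sall4*, *Lin28a*, *Id4*, *Pou5f1*, *Foxo1*, *Nanos2*, *Nanos3*, *Sox3* and *Utf1*, and every probe set annotated to 1 of them was taken, which gave 20 probe sets of 8 genes among 45101 probe sets on the array. *Nanos2* and *Nanos3* had no probe set in the annotation used and have no values here. At 7 dpp (days post partum) the signals of *Sox3*, *Lin28a*, *Sall4* and *Zbtb16* were lower than in B6 in the strains B6-ChrXMSM and B6-ChrXTMSM. These have an MSM-derived X chromosome or distal X segment in a B6 background. The signals were lower by 1.14 to 2.02 on the log2 scale, whereas the leading probe set of *Id4* differed by at most 0.20. None of these genes was called lower by its leading probe set at 7 dpp in MSM, or in F1 males with that distal segment and an MSM copy of chromosome 1. In MSM itself *Lin28a* and *Id4* were higher than in B6 at both ages.

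38 Affymetrix arrays measured RNA of whole testes, 1 mouse per array, in 11 groups. At both ages, 5 and 7 dpp, there were 3 arrays each of B6 (the host strain), of MSM (the inbred donor strain of another mouse subspecies), of B6-ChrXMSM (B6 with almost all of its X chromosome from MSM) and of B6-ChrXTMSM (B6 with only the distal part of the X chromosome from MSM). Males of a cross written (B6-ChrXTMSM x B6-Chr1MSM)F1, F1 for short, carry that same distal X segment and 1 MSM copy of chromosome 1 beside 1 B6 copy, and there were 3 at 5 dpp and 8 at 7 dpp. XS39-tel, a congenic strain with an MSM-derived distal X segment, had 3 arrays at 5 dpp. The animals received no treatment, and the labels name the arrays of a group biological replicates. *Sox3* is X-linked and lies in the MSM-derived part in B6-ChrXMSM, but outside the segment of B6-ChrXTMSM, where the *Sox3* copy is that of B6; the other genes are autosomal and have B6 copies in every strain but MSM.

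Spermatogonial stem cells divide to renew themselves and to give progenitors, which later turn to differentiation under retinoic acid and begin to produce the receptor KIT. ZBTB16 (PLZF) and SALL4 are zinc finger proteins of undifferentiated spermatogonia that bind DNA together or apart, and ZBTB16 is needed to keep the stem cell pool. SOX3 is an HMG box factor of progenitors, and LIN28A binds RNA and blocks the maturation of let-7 microRNAs. ID4, a helix-loop-helix protein that cannot bind DNA itself, marks the most stem-like cells, while FOXO1 is a forkhead factor held out of the nucleus by PI3K and AKT signalling. POU5F1 (OCT4) and UTF1 are factors shared with pluripotent cells, and NANOS2 and NANOS3 are RNA-binding repressors of translation.

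The labelled tissue was borne out by its markers. *Ddx4* and *Dazl* of germ cells, *Sox9*, *Amh* and *Wt1* of Sertoli cells, *Cyp17a1* and *Star* of Leydig cells and *Acta2* of peritubular cells were above the expression filter in all 11 groups, while *Acta1* and *Ckm* of skeletal muscle and *Hba-a1* and *Alas2* of red cells were above it in 0 groups. The filter was a group mean above 3.32, the log2 of a signal of 10. The mean signal of 5 adipose genes ran from 2.19 to 7.18 among arrays and varied widely within groups, from 3.36 to 7.18 among the B6 arrays of 5 dpp alone. It was lowest on average in B6 at 7 dpp, at 2.19 to 2.58, and its part in the differences was not tested. Whole testes were used, so fewer cells of a type and less RNA per cell cannot be told apart in any value that follows.

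The promoters of *Lin28a* and *Id4* are shown because the former gene was lower in the substitution strains at 7 dpp and the latter was not. Each is 250 bases before an annotated start, from RefSeq on GRCm38.p6, at chr4:134018817-134019066 on the minus strand for *Lin28a* and chr13:48260866-48261115 on the plus strand for *Id4*, written 5′ to 3′ in the direction of transcription. The *Id4* window ends next to the outermost start of the gene, at 48261116. The *Lin28a* gene spans 134003330 to 134019196, so its window lies inside the gene, before an inner start. The windows are thus placed differently.
Lin28a: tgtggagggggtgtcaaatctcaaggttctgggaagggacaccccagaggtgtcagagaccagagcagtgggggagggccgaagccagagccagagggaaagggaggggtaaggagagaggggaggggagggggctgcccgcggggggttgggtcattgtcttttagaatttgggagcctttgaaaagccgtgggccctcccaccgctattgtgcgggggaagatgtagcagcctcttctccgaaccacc
Id4: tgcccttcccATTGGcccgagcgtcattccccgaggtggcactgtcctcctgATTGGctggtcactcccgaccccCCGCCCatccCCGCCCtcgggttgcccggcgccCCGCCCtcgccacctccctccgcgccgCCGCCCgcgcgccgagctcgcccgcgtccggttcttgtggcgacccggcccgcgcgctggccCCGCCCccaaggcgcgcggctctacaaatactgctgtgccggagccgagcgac
Capitals mark matches, here all on the opposite strand, to the CCAAT box (letters CCAAT) and the GC box (letters GGGCGG). The *Id4* window held 2 CCAAT boxes and 5 GC boxes at a GC content of 75.6%, and the *Lin28a* window held neither at a GC content of 61.2%, against a median GC content of 52.4% over all promoters in the table. Of 32851 promoters of that length, 33.8% held a CCAAT box and 32.7% a GC box. The TATA box (TATAAA), the palindromic E-box (CACGTG), a forkhead motif (GTAAACA) and a SOX motif (AACAAT) were searched on both strands too and were in neither window, and 12.4%, 6.02%, 3.17% and 9.42% of promoters held them, in that order. No motif overlapped another, and a match is a description of letters only.

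Of the 20 probe sets, 13 passed the filter in at least 1 group, and they belong to *Sall4*, *Zbtb16*, *Sox3*, *Lin28a*, *Id4* and *Foxo1*. The 7 that never passed were the single probe set of *Pou5f1*, all 3 of *Utf1* and 1 each of *Lin28a*, *Foxo1* and *Sox3*. *Zbtb16* 1427638_at passed in only 4 of the groups, all of B6 or MSM, and *Sall4* 1424153_s_at in 5. Their values in the other groups are close to background. The *Pou5f1* probe set (1417945_at) ranged from 1.79 to 3.34 among arrays, with the highest group mean, 3.04, in MSM at 7 dpp and the lowest, 2.20, in F1 at 5 dpp. The brightest *Utf1* probe set (1416899_at) ranged from 2.23 to 3.20. No statement on these 2 genes beyond these ranges is made for the group comparisons. For each other gene the probe set of highest mean over the 38 arrays leads, and the others are named by their identifiers.

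**Figure D1:**
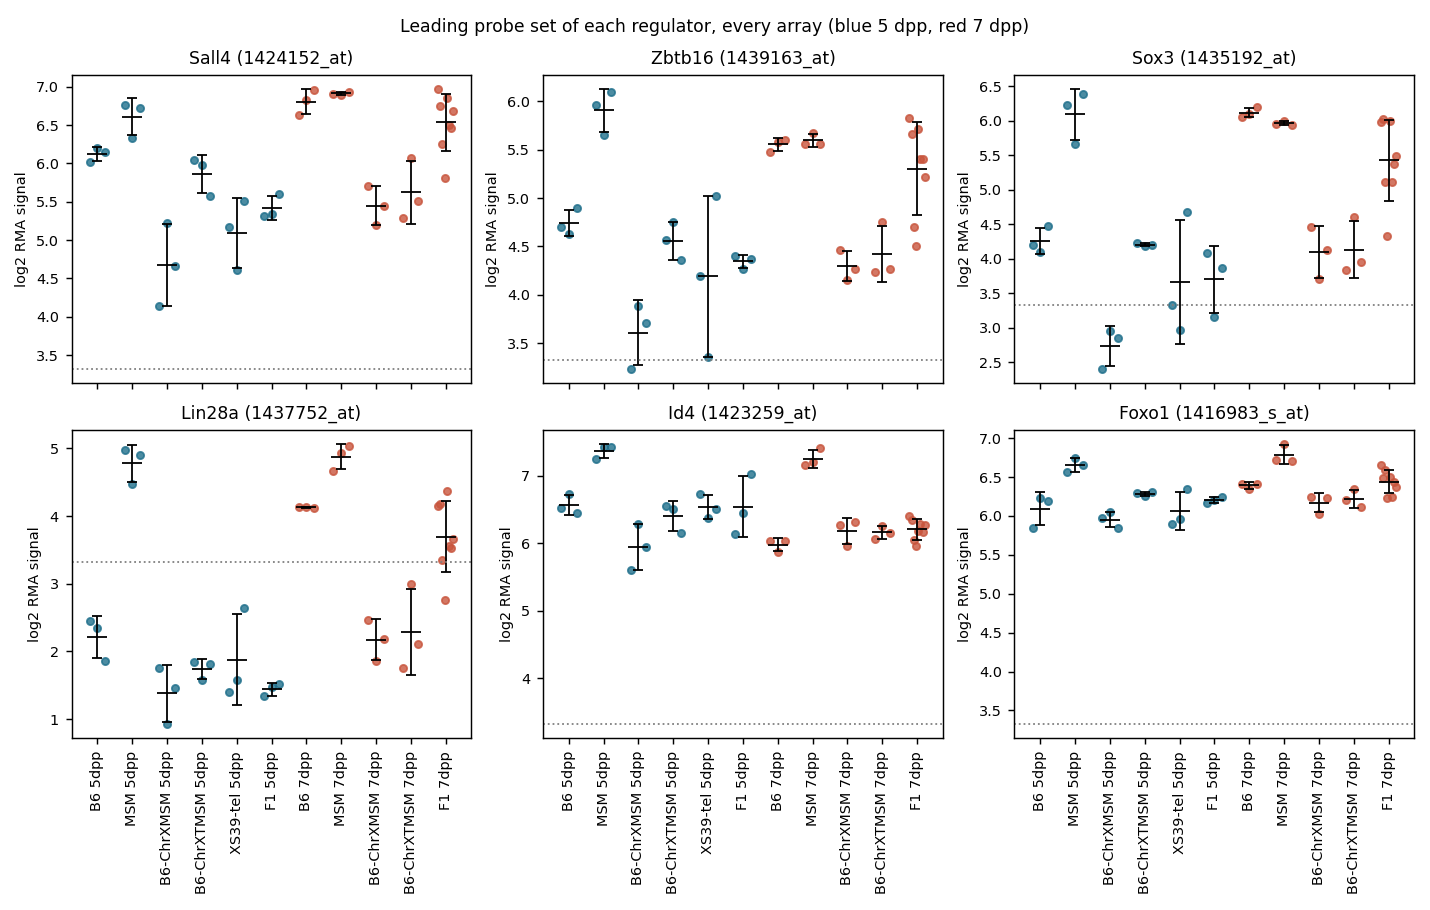
Log2 RMA signals of the leading probe sets of the 6 genes above the filter, 1 point per array, by strain and age (horizontal axis), with bars for the group mean and SD; the vertical axis is the log2 signal and the dotted line the filter at 3.32. *Sox3*, *Lin28a*, *Sall4* and *Zbtb16* were lower in B6-ChrXMSM and B6-ChrXTMSM than in B6 at 7 dpp, and *Id4* was highest in MSM.

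*Sox3* had log2 signals of 6.06, 6.10 and 6.19 in B6 at 7 dpp, of 4.46, 3.71 and 4.12 in B6-ChrXMSM and of 3.84, 4.61 and 3.95 in B6-ChrXTMSM. All 6 arrays of the substitution strains lay below all 3 of B6. The signal was lower by a log2 difference of -2.02 (standard error, SE, 0.16, 4.05-fold, Benjamini-Hochberg adjusted p = 7.14e-05 from limma) in B6-ChrXMSM and by -1.99 (SE 0.18, adjusted p = 0.000284 from limma) in B6-ChrXTMSM. The 2 strains carry *Sox3* copies of different origin, MSM in the former and B6 in the latter. A difference was called where the adjusted p was under 0.05 and the fold at least 1.5, or 0.58 on the log2 scale.

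*Lin28a* had signals of 4.13, 4.14 and 4.12 in B6 at 7 dpp, the tightest group of any in this gene. In B6-ChrXMSM they were 2.47, 1.86 and 2.19, and in B6-ChrXTMSM 1.75, 3.0 and 2.11. All 6 lay under the filter of 3.32 and all B6 arrays were above it, so the fold rests on a signal close to background on the low side. The log2 difference was -1.96 (SE 0.13, adjusted p = 3.33e-05 from limma) in B6-ChrXMSM and -1.85 (SE 0.26, adjusted p = 0.00149) in B6-ChrXTMSM.

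The zinc finger genes moved by less. *Sall4* had signals of 6.63, 6.83 and 6.95 in B6 at 7 dpp, of 5.70, 5.20 and 5.45 in B6-ChrXMSM and of 5.29, 6.08 and 5.51 in B6-ChrXTMSM, with no overlap between B6 and either strain. The log2 difference was -1.35 (SE 0.13, adjusted p = 0.000166 from limma) in the former and -1.18 (SE 0.18, adjusted p = 0.00202) in the latter. Its other probe set, 1424153_s_at, was lower too, by -1.14 and -1.09. *Zbtb16* had signals of 5.48, 5.58 and 5.61 in B6, of 4.47, 4.16 and 4.26 in B6-ChrXMSM and of 4.24, 4.75 and 4.27 in B6-ChrXTMSM, again without overlap. The log2 difference was -1.26 (SE 0.08, adjusted p = 3.49e-05 from limma) and -1.14 (SE 0.13, adjusted p = 0.000653). Of its other probe sets, 1427638_at was lower in both strains (-0.99 and -1.01), and 1419874_x_at was called in B6-ChrXTMSM only (-0.74), with -0.58 (adjusted p = 0.0193) and a fold of 1.49 in B6-ChrXMSM. Without B6 replicate 2 or 3 the call of 1419874_x_at in B6-ChrXTMSM was lost, at adjusted p = 0.0514 and 0.0519 from limma.

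*Id4* did not share this pattern. Its signals at 7 dpp were 6.04, 5.87 and 6.03 in B6, 6.26, 5.96 and 6.31 in B6-ChrXMSM and 6.07, 6.26 and 6.15 in B6-ChrXTMSM, so that the substitution strains lay level with B6 or slightly above it. The log2 difference was 0.20 (95% interval -0.02 to 0.43, adjusted p = 0.133 from limma) in B6-ChrXMSM and 0.18 (95% interval 0.02 to 0.35, adjusted p = 0.0736) in B6-ChrXTMSM. The intervals reach neither the fold threshold nor any value as low as those of the preceding 4 genes. The *Id4* probe set 1450928_at had a difference of 0.46 in B6-ChrXMSM (adjusted p = 0.0262), under the fold threshold.

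The probe sets of *Foxo1* disagreed in size. The leading one had signals of 6.41, 6.35 and 6.42 in B6 at 7 dpp, of 6.25, 6.03 and 6.24 in B6-ChrXMSM and of 6.20, 6.34 and 6.11 in B6-ChrXTMSM, all 6 of them under the lowest B6 array. The difference was -0.22 (adjusted p = 0.0387 from limma) and -0.17 (adjusted p = 0.0717), neither of them called. Probe set 1416982_at was called lower in both strains, with differences of -0.82 (adjusted p = 0.000546 from limma) and -0.65 (adjusted p = 0.00393). Without replicate 1 of B6-ChrXTMSM the latter was -0.55, under the fold threshold. Probe set 1416981_at had means of 5.13 in B6, 4.65 in B6-ChrXMSM and 4.62 in B6-ChrXTMSM, without overlap with B6 but under the fold threshold.

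In all, 7 of 13 member probe sets kept by the filter were called lower in B6-ChrXMSM at 7 dpp and 0 higher, against 4.61% of all probe sets tested called lower and 1.47% higher. In B6-ChrXTMSM 8 of 13 were called lower and 0 higher, against 4.49% and 1.23%. Counted by gene with the leading probe set, 4 of 6 genes were lower in each strain, with median differences of -1.31 and -1.16, beside a median of 0.00 and 0.03 over all genes tested. Both comparisons use the same 3 B6 arrays.

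**Figure D2:**
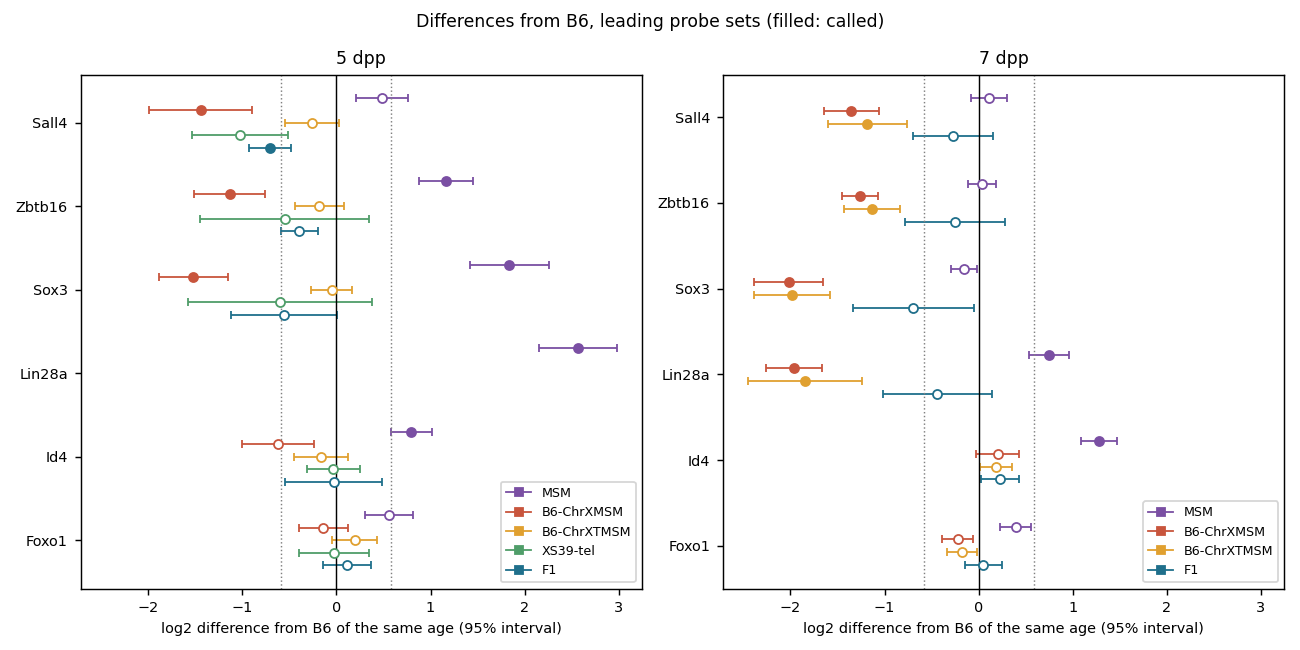
Log2 difference of each strain from B6 of the same age (horizontal axis) for the leading probe sets, with 95% intervals from limma; filled points were called and dotted lines mark the 1.5-fold threshold. At 5 dpp *Lin28a* was under the filter in every pair but MSM against B6 and has no other point; at 7 dpp the intervals of *Sox3*, *Lin28a*, *Sall4* and *Zbtb16* in both substitution strains lie wholly below the threshold.

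Other germ cell genes fell along with the members at 7 dpp. Of 17 general germ cell genes, which hold no member, 15 were called lower in B6-ChrXMSM and 15 in B6-ChrXTMSM, with medians of -1.26 and -1.19; *Ddx4* and *Dazl* had differences of -1.12 and -1.38 in B6-ChrXMSM. The mean signal of that list was 5.84 to 5.95 in B6, 4.48 to 4.91 in B6-ChrXMSM and 4.53 to 5.19 in B6-ChrXTMSM. The germ cell level therefore moved with the members, and its part in their differences was not tested. The mean of 22 Sertoli cell genes, in contrast, had group means from 6.89 in B6 at 7 dpp to 7.17 in B6-ChrXMSM at 7 dpp. Of those genes 2 were lower and 3 higher in B6-ChrXMSM than in B6 at 7 dpp, with a median of 0.33.

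Genes of differentiating spermatogonia and other genes of undifferentiated spermatogonia were counted apart; the difference between the lists was not tested. Of 13 differentiation genes kept, 12 were lower in B6-ChrXMSM and 1, *Ccnd2*, was higher by 0.72, around a median of -1.66. Of 18 other genes of undifferentiated spermatogonia, 4 were lower (*Tex14* -1.28, *Taf4b* -1.07, *Ccnd1* -0.73 and *Epcam* -0.71), 1 was higher (*Lhx1* 0.64) and 13 were not called, around a median of -0.07. The GDNF receptor genes *Gfra1* and *Ret* had differences of -0.19 and 0.41, and *Etv5*, a GDNF-responsive factor, of 0.54, none of them called. In B6-ChrXTMSM, 3 of these 18 were lower and 0 higher, with a median of -0.02. All genes tested gave 4.34% lower and 1.64% higher in B6-ChrXMSM, and 3.66% and 1.37% in B6-ChrXTMSM.

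Of 18 partners and targets of the members kept in B6-ChrXMSM at 7 dpp, 9 were lower, 1 was higher (*Lhx1*, also in the preceding list) and 8 were not called, with a median of -0.49. The lower ones included *Rhox13*, whose mRNA NANOS2 represses, at -2.43, *Stra8*, the retinoic acid-induced gene, at -2.24, *Sohlh1*, a helix-loop-helix factor of early differentiation, at -1.66, and *Kit* at -1.40. Of 8 paralogs of the members kept, 1 was lower (*Nanos1*, -0.66), and *Id1*, *Id2* and *Id3*, relatives of *Id4*, had differences of 0.40, 0.00 and 0.41, none of them called.

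**Figure D3:**
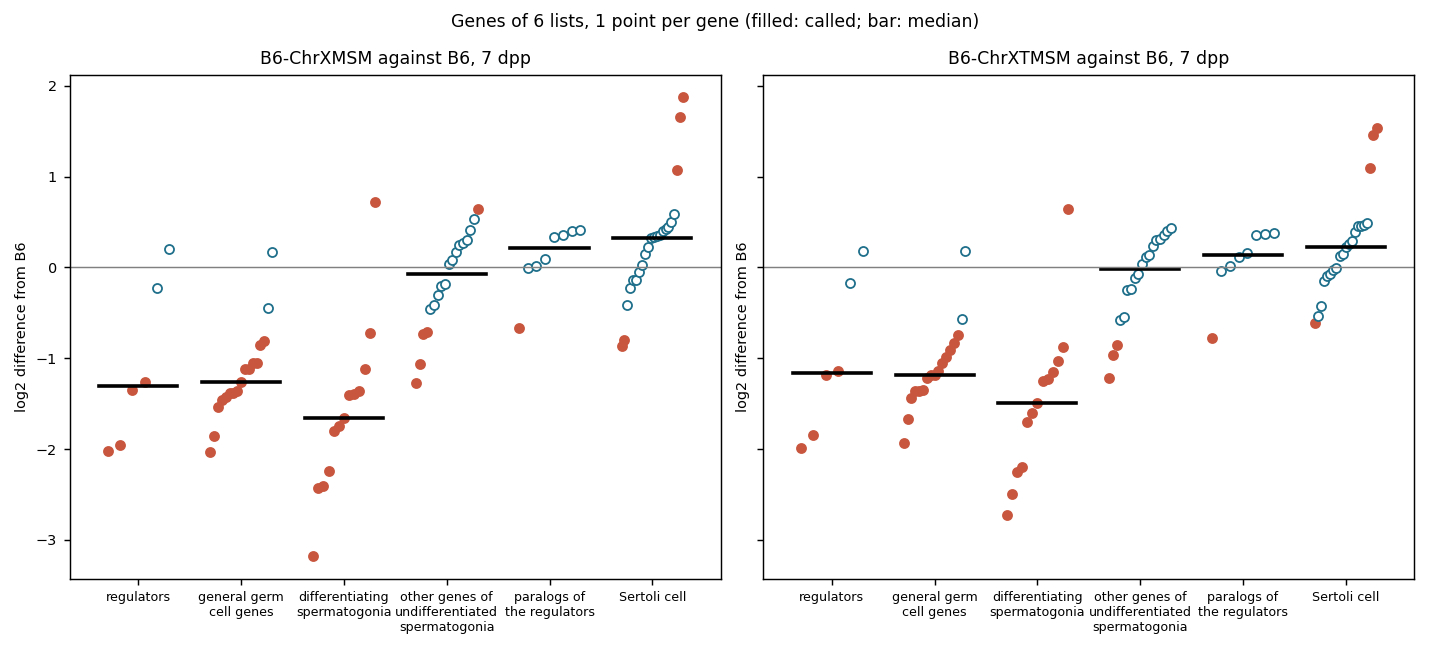
Log2 difference from B6 at 7 dpp (vertical axis) of single genes in 6 lists (horizontal axis), for B6-ChrXMSM and B6-ChrXTMSM; each point is a gene by its leading probe set, filled where called, and bars are list medians. The regulators have medians of -1.31 and -1.16, close to those of the general germ cell genes, and the other genes of undifferentiated spermatogonia have medians of -0.07 and -0.02.

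At 5 dpp the 2 substitution strains differed from B6 to different extents. *Sox3* had signals of 4.20, 4.10 and 4.47 in B6, of 2.40, 2.95 and 2.85 in B6-ChrXMSM and of 4.23, 4.18 and 4.19 in B6-ChrXTMSM. B6-ChrXMSM lay wholly below B6 and under the filter, and B6-ChrXTMSM lay within the B6 range. The log2 difference was -1.52 (SE 0.16, adjusted p = 0.00413 from limma) in B6-ChrXMSM and -0.05 (95% interval -0.27 to 0.17) in B6-ChrXTMSM.

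*Sall4* had signals of 6.02, 6.20 and 6.15 in B6 at 5 dpp and of 4.15, 5.22 and 4.66 in B6-ChrXMSM, which did not overlap but spread over more than 1 log2 unit in the latter. The difference was -1.44 (SE 0.24, adjusted p = 0.0205 from limma), and in B6-ChrXTMSM it was -0.26 (95% interval -0.55 to 0.03). *Zbtb16* had signals of 4.70, 4.63 and 4.89 in B6 and of 3.23, 3.89 and 3.71 in B6-ChrXMSM, also without overlap. Its difference was -1.13 (SE 0.16, adjusted p = 0.0134), against -0.18 (95% interval -0.44 to 0.08) in B6-ChrXTMSM.

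In B6-ChrXMSM at 5 dpp, 5 of 12 member probe sets were called lower (*Sox3*, both probe sets of *Sall4*, and the leading probe set and 1427638_at of *Zbtb16*) and 0 higher, against 1.49% and 0.183% of all tested. Of these, *Sox3*, *Sall4* 1424153_s_at and *Zbtb16* 1427638_at passed the filter only through B6, with means of 2.74, 2.73 and 2.62 in B6-ChrXMSM. The count was 1, *Sox3*, without B6 replicate 1 or without B6 replicate 3, and 3 without B6 replicate 2 or without B6-ChrXMSM replicate 3; the adjusted p of *Sall4* was then 0.0663 to 0.0798 and that of *Zbtb16* 0.0557 and 0.0507 without B6 replicate 1 and 3. In the same comparison 11 of 15 general germ cell genes were lower, with a median of -1.45, and their mean signal was 3.23 to 4.10 against 4.81 to 4.98 in B6. In B6-ChrXTMSM 0 of 12 were called with limma, against 0.224% lower and 0.0767% higher, and 4 of the 12 had an unadjusted p under 0.05. *Id4* had a difference of -0.62 (95% interval -1.0 to -0.24, adjusted p = 0.0753 from limma) in B6-ChrXMSM. *Lin28a* was under the filter in both groups of each pair at 5 dpp.

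XS39-tel and the F1 males were compared with B6 at 5 dpp too. *Sall4* had signals of 5.18, 4.61 and 5.51 in XS39-tel and of 5.31, 5.34 and 5.60 in F1, all 6 under the lowest B6 array at 6.02. The difference was -1.02 (95% interval -1.53 to -0.51, adjusted p = 0.0844 from limma) in XS39-tel, which was not called, and -0.70 (SE 0.09, adjusted p = 0.035) in F1, which was. *Sox3* spread from 2.96 to 4.68 among the 3 XS39-tel arrays, with replicate 3 above every B6 array of 5 dpp and the other 2 below, and its difference was -0.60 (95% interval -1.58 to 0.38).

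In XS39-tel 1 of 12 member probe sets was called lower, *Zbtb16* 1427638_at (-0.81, adjusted p = 0.0252 from limma), and 0 were higher, against 0.544% and 0.105% of all tested. That probe set passed the filter only through B6, with a mean of 2.56 in XS39-tel. Leaving out XS39-tel replicate 3 gave 5 calls, and leaving out any B6 array or XS39-tel replicate 1 or 2 gave 0. That replicate also had the highest mean of general germ cell genes in its group, 4.61 against 4.18 and 3.82. In F1 3 of 12 were called lower, both *Sall4* probe sets and *Zbtb16* 1427638_at (-0.66), and 0 higher, against 0.388% and 0.149%; this count was 0 to 3 when single arrays were left out, and *Sall4* lost its call without any of the B6 arrays (adjusted p 0.131 to 0.17) or F1 replicate 1 or 2. *Sall4* 1424153_s_at and *Zbtb16* 1427638_at passed the filter only through B6 here, with means of 2.96 and 2.72 in F1. Of 15 general germ cell genes, 4 were lower in F1 (median -0.63) and 1 in XS39-tel (median -0.73), and their part was not tested. Between F1 and B6-ChrXTMSM at 5 dpp 0 of 11 were called with limma, against 0.0120% lower and 0.0361% higher, and 3 had an unadjusted p under 0.05.

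In B6 5 of 6 genes changed with age by their leading probe sets, and that of *Foxo1* was not called. From 5 to 7 dpp *Sox3* rose from 4.20, 4.10 and 4.47 to 6.06, 6.10 and 6.19, with the ages well apart, a log2 difference of 1.86 (SE 0.10, adjusted p = 3.02e-05 from limma). *Lin28a* rose from 2.44, 2.35 and 1.86, under the filter, to 4.12 to 4.14, by 1.92 (SE 0.14, adjusted p = 7.26e-05). *Zbtb16* rose by 0.81 (SE 0.08, adjusted p = 0.000201) and *Sall4* by 0.68 (SE 0.09, adjusted p = 0.000766), each without overlap between ages.

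*Id4* went the other way in B6, from 6.53, 6.73 and 6.45 to 6.04, 5.87 and 6.03. All 3 arrays of 7 dpp were below all of 5 dpp, and the signal fell by 0.59 on the log2 scale (SE 0.08, adjusted p = 0.00117 from limma), just past the fold threshold. Without replicate 2 of B6 at 5 dpp it fell by 0.51, and without replicate 2 at 7 dpp by 0.54, which are under that threshold, and the other probe set called, 1450928_at, lost its call without the same arrays or without replicate 3 at 7 dpp. In all, 5 of 13 member probe sets were called higher at 7 dpp and 2, both of *Id4*, lower, against 4.16% and 4.18% of all tested. Of the 17 general germ cell genes 15 were higher at 7 dpp, with a median of 1.10, while the other genes of undifferentiated spermatogonia had 2 higher and 2 lower of 18. In B6 the mean of 6 vascular endothelial genes was 4.39 at 5 dpp and 3.80 at 7 dpp. That of 22 Sertoli cell genes was 7.03 and 6.89. Their part in the fall of *Id4* was not tested.

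In B6-ChrXTMSM 0 of 11 member probe sets were called between the ages with limma, against 0.272% higher and 0.567% lower of all tested, and 1 of the 11 had an unadjusted p under 0.05. *Sox3* was at 4.23, 4.18 and 4.19 at 5 dpp and at 3.84, 4.61 and 3.95 at 7 dpp, ranges that overlap, a difference of -0.07 (95% interval -0.50 to 0.35). The strain difference itself changed with age. The change in B6-ChrXTMSM minus the change in B6 was -1.93 for *Sox3* (SE 0.23, adjusted p = 0.000706 from limma), -1.37 for *Lin28a* (SE 0.35, adjusted p = 0.0188), -0.95 for *Zbtb16* (SE 0.19, adjusted p = 0.0063) and -0.92 for *Sall4* (SE 0.25, adjusted p = 0.0236). For *Lin28a* only B6 at 7 dpp (mean 4.13) was above the filter. The means of B6 at 5 dpp (2.22) and of B6-ChrXTMSM (1.75 and 2.29) were close to background, which limits its value.

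For this change of the strain difference, 5 of 13 member probe sets were called lower and 0 higher, against 3.04% and 2.15% of all tested. The call of *Sall4* was lost at adjusted p = 0.0504 to 0.0578 from limma without B6 replicate 1 or B6-ChrXTMSM replicate 1 or 2 at 5 dpp, or without B6 replicate 3 or B6-ChrXTMSM replicate 3 at 7 dpp. That of *Zbtb16* 1427638_at was lost without B6 replicate 1 or 2 or B6-ChrXTMSM replicate 2 at 5 dpp, or without B6 replicate 2 or 3 or B6-ChrXTMSM replicate 3 at 7 dpp. With 1 fit over all 11 groups the calls of *Lin28a* (adjusted p = 0.0772), the leading *Zbtb16* probe set (adjusted p = 0.158), *Sall4* (adjusted p = 0.119) and *Zbtb16* 1427638_at (adjusted p = 0.174) were lost in limma, and *Sox3* kept its call. *Id4* had an interaction value of 0.35 (95% interval 0.01 to 0.68, adjusted p = 0.12).

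B6-ChrXMSM did change between the ages. *Sox3* rose from 2.40, 2.95 and 2.85 to 4.46, 3.71 and 4.12, without overlap, by 1.36 (SE 0.20, adjusted p = 0.00791 from limma), and *Zbtb16* rose by 0.69 (SE 0.16, adjusted p = 0.0378). These were 2 of 10 probe sets called higher, *Sox3* from a 5 dpp mean of 2.74 under the filter, and 0 lower, against 1.33% and 1.15%. General germ cell genes moved with them, 10 of 15 higher with a median of 1.18, as did 7 of 10 genes of differentiating spermatogonia, and their part was not tested. The call of *Zbtb16* was lost without 5 of the 6 arrays in turn, that is without B6-ChrXMSM replicate 1 or 3 at 5 dpp (differences of 0.50 and 0.74) or any replicate at 7 dpp (differences of 0.60 to 0.76). The difference of its age change from that of B6 was called for 0 of 13 with limma, against 0.692% lower and 0.710% higher, and 5 had an unadjusted p under 0.05. It was -0.50 for *Sox3* (95% interval -1.06 to 0.06) and -1.12 for *Lin28a* (95% interval -1.77 to -0.48, adjusted p = 0.0566). Here too *Lin28a* was above the filter only in B6 at 7 dpp.

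**Figure D4:**
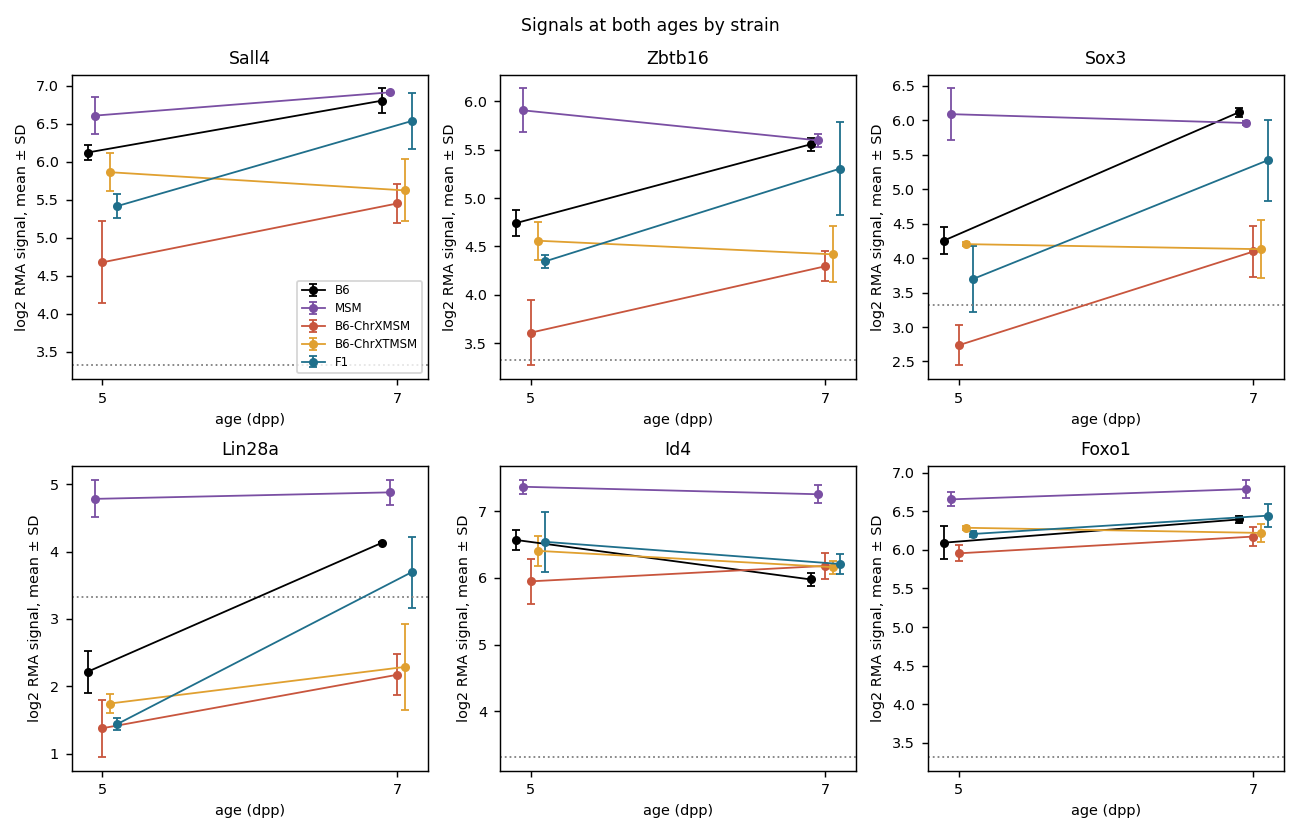
Mean log2 RMA signal with SD (vertical axis) at 5 and 7 dpp (horizontal axis) in B6, MSM, B6-ChrXMSM, B6-ChrXTMSM and F1, n = 3 arrays per point and 8 for F1 at 7 dpp; the dotted line is the filter at 3.32. *Sox3*, *Lin28a*, *Sall4* and *Zbtb16* rose with age in B6 and F1; in B6-ChrXTMSM *Lin28a* was under the filter and the other 3 had no call.

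In MSM at 5 dpp 4 of 6 genes were higher than in B6 by their leading probe sets, *Lin28a*, *Sox3*, *Zbtb16* and *Id4*. *Lin28a* had signals of 4.97, 4.47 and 4.90 in MSM at 5 dpp and of 4.67, 4.93 and 5.03 at 7 dpp, above every other group at both ages. Against B6 it was higher by 2.56 at 5 dpp (SE 0.18, 5.91-fold, adjusted p = 1.06e-05 from limma) and by 0.74 at 7 dpp (SE 0.09, adjusted p = 0.000239). The B6 arrays of 5 dpp lay under the filter, so that the 5 dpp fold rests on a signal close to background. The 7 dpp call was lost with 1 fit over all 11 groups (adjusted p = 0.0532). *Sox3* was at 6.22, 5.67 and 6.38 in MSM at 5 dpp, higher than B6 by 1.83 (SE 0.18, adjusted p = 6.23e-05), and at 5.95, 6.00 and 5.94 at 7 dpp, a difference of -0.15 (95% interval -0.29 to -0.02, adjusted p = 0.0565) from B6.

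*Id4* was higher in MSM than in B6 at both ages and with all 3 probe sets. Its leading probe set had 7.24, 7.42 and 7.43 in MSM at 5 dpp and 7.16, 7.20 and 7.40 at 7 dpp, above every array of every other strain. The difference from B6 was 0.80 at 5 dpp (SE 0.09, adjusted p = 0.000146 from limma) and 1.28 at 7 dpp (SE 0.08, adjusted p = 7.75e-06). Levels of other cell types differed too. The mean of 6 vascular endothelial genes was 4.83 in MSM and 4.39 in B6 at 5 dpp, and 4.35 and 3.80 at 7 dpp. That of 7 Leydig cell genes was lower in MSM, at 7.00 against 7.28 at 5 dpp and 6.91 against 7.16 at 7 dpp. Their part in the *Id4* values was not tested. *Zbtb16* was higher by 1.17 at 5 dpp (adjusted p = 8.38e-05) and differed by 0.04 (95% interval -0.11 to 0.19) at 7 dpp. Its other probe sets disagreed with each other: 1419874_x_at was higher in MSM at both ages, by 1.26 and 0.81, and 1427638_at had differences of 0.09 and -0.04, neither called.

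*Sall4* gave different answers by probe set. The leading probe set differed from B6 by 0.49 at 5 dpp (1.4-fold, adjusted p = 0.00763 from limma, not called) and 0.11 at 7 dpp, while 1424153_s_at was lower in MSM at 7 dpp by -0.98 (adjusted p = 0.000184). Likewise, among the probe sets of *Foxo1*, 1416981_at was higher in MSM at 5 dpp by 1.20 (adjusted p = 3.16e-05) and the leading one differed by 0.56, under the fold threshold. No member probe set is among those the study lists as polymorphic, but that list covers chromosomes 1 and X, so mismatches of the MSM sequence in probes of the autosomal members were not tested.

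Of 13 member probe sets 8 were higher and 0 lower in MSM at 5 dpp, against 16.2% and 12.0% of all tested, and 5 were higher and 1 lower at 7 dpp, against 9.36% and 7.93%. In MSM 11 of 22 other genes of undifferentiated spermatogonia were higher than in B6 at 5 dpp and 9 of 21 at 7 dpp, among them *Piwil4* (2.10), *Cdh1* (1.79), *Neurog3* (1.57) and *Ret* (1.44) at 7 dpp, where *Gfra1* was higher by 0.70. General germ cell genes were higher for 10 of 16 at 5 dpp and 4 of 17 at 7 dpp.

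Between the ages, MSM showed 0 member probe sets higher and 1 lower, *Foxo1* 1416981_at (-0.73, adjusted p = 0.00101 from limma), of 13, against 7.60% and 7.08%. *Sox3* differed by -0.13 (95% interval -0.49 to 0.23) and *Lin28a* by 0.10 (95% interval -0.23 to 0.42). The age change in MSM minus that in B6 was called lower for 5 of 13 probe sets and higher for 0, against 6.30% and 5.70%: it was -1.99 for *Sox3* (adjusted p = 7.09e-05), -1.82 for *Lin28a* (adjusted p = 0.000155), -1.12 for *Zbtb16* (adjusted p = 0.000223), -1.14 for *Foxo1* 1416981_at and -0.73 for *Sall4* 1424153_s_at. The B6 mean of *Lin28a* at 5 dpp, 2.22, was under the filter.

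B6-ChrXMSM was set against MSM too, since both carry an MSM-derived X chromosome. All 13 member probe sets kept were lower in B6-ChrXMSM at 5 dpp and 11 of 12 at 7 dpp, and 0 were higher, against 18.9% and 14.5% of all tested called lower and 12.3% and 9.31% called higher. *Sox3*, for which the copies have the same origin, was lower by -3.35 at 5 dpp (SE 0.20, adjusted p = 3.53e-06 from limma) and by -1.87 at 7 dpp (adjusted p = 3.11e-05). *Lin28a* was lower by -3.40 and -2.71, and *Id4* by -1.42 and -1.07. In B6-ChrXMSM *Lin28a* (means of 1.38 and 2.17) and *Sox3* at 5 dpp (2.74) were under the filter, so these folds rest on signals close to background. The other probe sets of *Sall4* and *Zbtb16* were under it there at 5 dpp too. General germ cell genes moved with the members, 15 of 16 lower at 5 dpp (median -1.94) and 17 of 17 at 7 dpp (median -1.46), as did 5 of 6 vascular endothelial genes (median -0.64) and 4 of 8 peritubular myoid genes (median -0.61) at 5 dpp. The part of these cell types in the differences was not tested.

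The 8 F1 males of 7 dpp spread widely. *Sox3* ranged from 4.32 through a median of 5.43 to 6.03, *Lin28a* from 2.76 through 3.61 to 4.37, and *Sall4* from 5.81 through 6.59 to 6.98. *Zbtb16* ranged from 4.50 through 5.41 to 5.83. The lowest male was within the B6-ChrXTMSM range for each of these 4 genes, and the highest was above every B6 array for *Lin28a*, *Sall4* and *Zbtb16*, but not for *Sox3*. *Id4* ranged only from 5.96 to 6.41 and the leading *Foxo1* probe set from 6.24 to 6.65.

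Against B6, 1 of 13 member probe sets was called lower in F1 at 7 dpp, *Zbtb16* 1427638_at (-0.96, adjusted p = 0.0304 from limma), and 0 higher, against 1.36% and 0.364%. Its probe set passed the filter only through B6, with a mean of 3.10 in F1. That call was lost without any of the 3 B6 arrays or without F1 replicate 6 or 7 (adjusted p 0.0542 to 0.165). *Sox3* had a difference of -0.69 (95% interval -1.34 to -0.05, adjusted p = 0.165) and *Lin28a* of -0.44 (95% interval -1.01 to 0.14). Against B6-ChrXTMSM 0 of 12 were called with limma, against 0.174% lower and 0.144% higher, although 9 had an unadjusted p under 0.05. *Lin28a* had a difference of 1.41 (95% interval 0.72 to 2.09, adjusted p = 0.0595), *Sox3* of 1.29 (95% interval 0.61 to 1.98, adjusted p = 0.0689) and *Sall4* of 0.91 (95% interval 0.44 to 1.39, adjusted p = 0.0678). Without F1 replicate 3, or without F1 replicate 4, 6 of the 12 were called higher.

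From 5 to 7 dpp in F1, 6 of 12 member probe sets were called higher and 0 lower, against 2.96% and 2.61%. General germ cell genes moved with them, 16 of 16 higher with a median of 1.33, as did 10 of 11 genes of differentiating spermatogonia, and their part was not tested. *Lin28a* rose by 2.26 (SE 0.27, adjusted p = 0.00268 from limma) from 1.33, 1.47 and 1.51, *Sox3* by 1.72 (SE 0.32, adjusted p = 0.00583) from 4.08, 3.16 and 3.86, and *Sall4* by 1.12 (SE 0.20, adjusted p = 0.0048). The *Lin28a* signals of 5 dpp were under the filter, so its rise starts from a signal close to background. *Zbtb16* rose by 0.96 (adjusted p = 0.0192), a call lost without F1 replicate 2 or 3 of 5 dpp (adjusted p = 0.0876 and 0.0709). The other calls, *Sall4* 1424153_s_at (0.97) and *Zbtb16* 1419874_x_at (0.94), were lost without F1 replicates 2 or 3 and 1 or 2 of 5 dpp, in that order. Both of these probe sets were under the filter at 5 dpp, with means of 2.96 and 3.20. The age change in F1 minus that in B6 was called for 0 of 13, against 0% lower and 0.0116% higher, with 0 of 13 at an unadjusted p under 0.05 in limma.

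Among the 8 F1 males 5 of 8 members tested were correlated with the general germ cell genes by Pearson's r, and 4 by Spearman's rho as well. The share of all probe sets that would pass the same test was not computed. The mean signal of the general germ cell genes ran from 5.03 to 6.15, with the widest step between neighbours from 5.27 to 5.57. *Lin28a* had Pearson's r = 0.97 (exact permutation p = 7.44e-05, adjusted p = 0.000595 over the 8 relations computed, two-sided) and Spearman's rho = 0.98 (exact permutation p = 0.000397). *Sall4* had r = 0.97 (exact permutation p = 0.000174, adjusted p = 0.000694) and rho = 0.98 (exact p = 0.000397, adjusted p = 0.00159, as for *Lin28a*). *Zbtb16* had r = 0.95 (exact permutation p = 0.000868, adjusted p = 0.00174) and rho = 0.88 (exact p = 0.00724, adjusted p = 0.0145). *Sox3* had r = 0.94 (exact permutation p = 0.000818, adjusted p = 0.00174) and rho = 0.90 (exact p = 0.00456, adjusted p = 0.0122). Without the 2 males farthest from the median, replicates 4 and 5, r was 0.92, 0.98, 0.92 and 0.86 in that order.

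*Id4* had r = 0.79 (exact permutation p = 0.0195, adjusted p = 0.0313) and rho = 0.74 (exact permutation p = 0.0458, adjusted p = 0.0733), and r = 0.97 without those males. *Foxo1* (r = 0.48, rho = 0.52), *Pou5f1* (r = 0.33, rho = 0.31) and *Utf1* (r = -0.46, rho = -0.38) did not pass, with exact permutation p = 0.229, 0.431 and 0.256 for r and 0.197, 0.462 and 0.36 for rho (adjusted p 0.292, 0.431 and 0.292, and 0.262, 0.462 and 0.411). Of 16358 probe sets above the filter in these males, 2.49% had r over 0.9 with the same mean, a cut that *Id4* did not reach. *Pou5f1* and *Utf1*, with means of 2.91 and 2.49 in these males, were under the filter and are outside that share. Against the mean of Sertoli cell genes the members that passed by r had negative values, -0.93 for *Zbtb16*, -0.92 for *Sox3*, -0.91 for *Sall4*, -0.88 for *Lin28a* and -0.81 for *Id4* (adjusted exact permutation p 0.00228 to 0.0275). The 2 axes are opposed in these males. Replicates 4 and 3 had the lowest germ cell means, 5.03 and 5.27, and the highest Sertoli cell means, 7.21 and 7.17. All signals of a male come from 1 array, and the labels give no further grouping of these males.

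**Figure D5:**
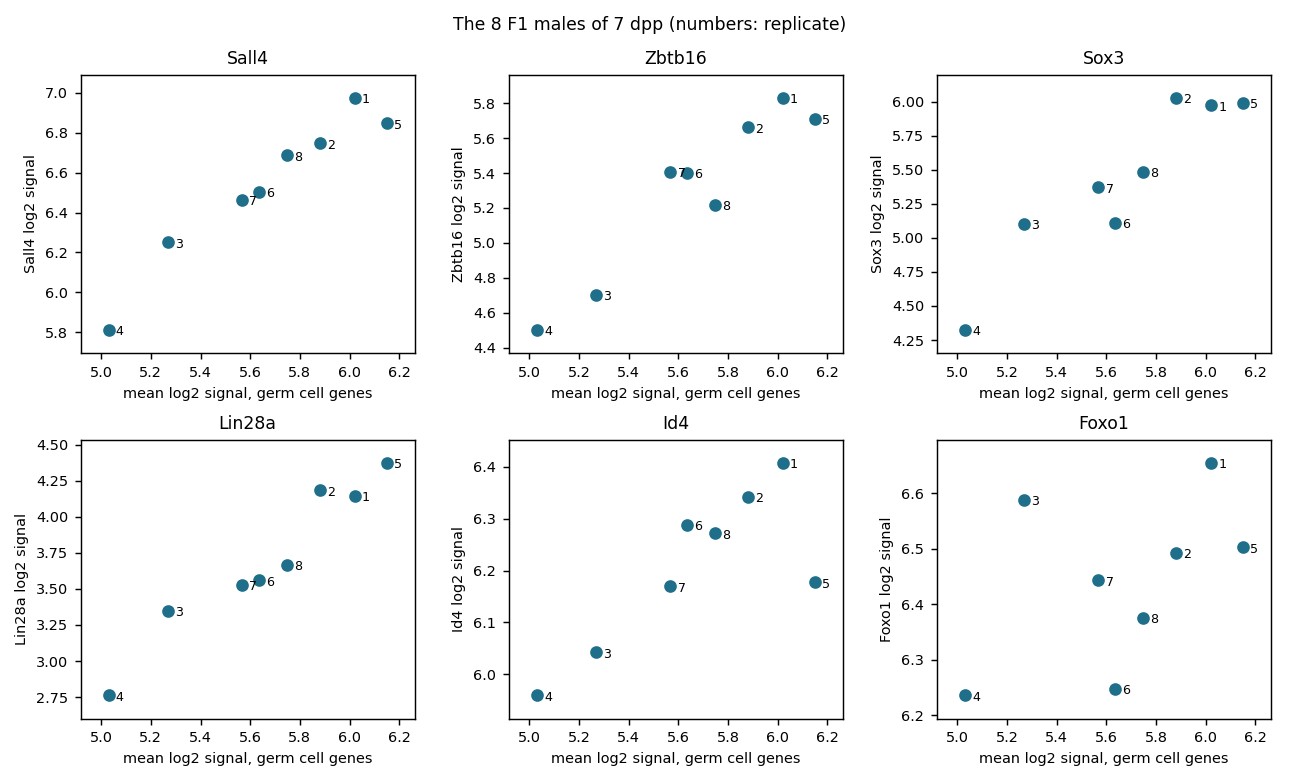
Log2 signals of the leading member probe sets (vertical axes) against the mean log2 signal of 17 general germ cell genes (horizontal axis) in the 8 F1 males of 7 dpp, 1 point per male. *Lin28a*, *Sall4*, *Zbtb16* and *Sox3* rise along the axis with r of 0.94 to 0.97, and *Foxo1* has r = 0.48.

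Ordered by group mean, *Sox3* ran from 6.12 ± 0.07 (SD, n = 3) in B6 at 7 dpp through 6.09 ± 0.37 in MSM at 5 dpp, 5.96 ± 0.03 in MSM at 7 dpp, 5.42 ± 0.59 (n = 8) in F1 at 7 dpp and 4.26 ± 0.19 in B6 at 5 dpp to 2.74 ± 0.29 in B6-ChrXMSM at 5 dpp. The last group lay just below XS39-tel at 5 dpp (3.66 ± 0.90), without overlap, and every other neighbour in the order overlapped with the next. *Lin28a* ran from 4.88 ± 0.19 in MSM at 7 dpp and 4.78 ± 0.27 in MSM at 5 dpp, which overlap, to 4.13 ± 0.01 in B6 at 7 dpp, which does not overlap with either, and down to 1.38 ± 0.42 in B6-ChrXMSM at 5 dpp. *Id4* placed both MSM groups first, at 7.36 ± 0.11 and 7.25 ± 0.13, and B6 at 7 dpp near the end, at 5.98 ± 0.10. For *Sall4*, from 6.91 to 4.68, and *Zbtb16*, from 5.91 to 3.61, every neighbour in the order overlapped with the next, and the *Foxo1* means lay between 5.95 and 6.79.

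Over the 11 group means, the genes most like the members were named among 18505 probe sets above the filter. *Rcor2* (r = 0.99), *Prtg* (r = 0.99) and *Polr2f* (r = 0.99) were closest to *Lin28a*, and *Stag3*, a meiotic cohesin gene, *Rcc2* and *Scaf11* were closest to *Sox3* (r = 0.99 for each). *Tktl1*, *Mtmr7* and *Ddx4* were closest to *Sall4* (r = 0.99 for each), and *Smagp* (r = 0.99), *Klhdc10* (r = 0.98) and *Tex19.1* (r = 0.98) to *Zbtb16*. *Cd93* (r = 0.98), *Rapgef3* and *Nkd2* (r = 0.97 for both) were closest to *Id4*, and *Terf1*, *Foxf1* and *Wasf1* (r = 0.98 for each) to *Foxo1*. Within genes, the probe sets correlated over the same means at 0.96 to 0.97 for *Id4*, 0.74 to 0.95 for *Zbtb16*, 0.80 for *Sall4* and 0.66 to 0.83 for *Foxo1*.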

How the data were processed

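Total RNA of whole prepubertal testes was hybridised to Affymetrix mouse whole-genome arrays. Per the labels and the methods, the authors normalised the deposited values with RMA in GeneSpring GX (version not given in the sources used here), and the deposited table holds log2 signals. Array medians were 2.63 to 2.71, no 2 of the 38 arrays were identical, and arrays of a group correlated at 0.989 to 0.997; the number of arrays limits the precision. Of 45101 probe sets, 34958 had 1 gene in the platform annotation, 932 several and 9211 none; 34724 were placed on an autosome or the X chromosome with RefSeq. After the study's methods, polymorphic probe sets on X (236) were left out, as were those on chromosome 1 (653) in F1 comparisons, and a probe set entered with a group mean above a signal of 10. Pairs of groups were compared with limma 3.58.1 (R 4.3.3) with Benjamini-Hochberg adjustment over all probe sets kept, and the change of a strain difference with age by an interaction term. The F1 males were tested with exact permutations (scipy 1.17.1). The code was tested on simulated data. The members, gene lists and tests were chosen with earlier results of these data known; some lists share genes. Named genes are all members, at most 4 called genes of a list with the largest change beside fixed reference genes, and the 3 genes most like a member. *Ccnd2* and *Lhx1* were named after their values were seen. Alternatives were no filter, medians subtracted, intensity trend with robust variances, 1 fit over all groups, replicate number as a block and single arrays left out. Promoters came from RefSeq (7 of 10 members matched). Other cell type lists were used for the tissue check and to give levels and counts beside the results. Sertoli cell genes also served as an alternative axis among the F1 males.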

Additional observations from a re-analysis of the deposited data

Results flagged for a closer look

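Among the 8 F1 males of 7 dpp, *Id4* 1450928_at had 1 male, replicate 4, apart from the rest at 3.55, with the next lowest at 3.79, a gap of 0.541 of the whole range. This was 1 of 20 probe sets examined, and chance flags about 5% of such groups. The strain difference changed with age for several members in limma. For MSM and B6 the change was -1.99 for *Sox3*, -1.82 for *Lin28a*, -1.14 for *Foxo1* 1416981_at, -1.12 for *Zbtb16* and -0.73 for *Sall4* 1424153_s_at. For B6-ChrXTMSM and B6 it was -1.93 for *Sox3*, -1.37 for *Lin28a*, -0.95 for *Zbtb16*, -0.92 for *Sall4* and -0.62 for *Zbtb16* 1427638_at.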

How the results depend on the processing

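Counts of member probe sets called in limma kept their direction and stayed within 1.5 times for both substitution strains and for MSM against B6 at 7 dpp. With single arrays left out they ran from 1 to 7 for B6-ChrXMSM against B6 at 5 dpp, 0 to 5 for XS39-tel, 0 to 3 for F1 at 5 dpp, 0 to 1 for F1 against B6 at 7 dpp, 0 to 6 for F1 against B6-ChrXTMSM at 7 dpp, 1 to 2 for age in MSM, 1 to 3 for age in B6-ChrXMSM, and 0 to 3 and 3 to 8 for the age change of B6-ChrXMSM and B6-ChrXTMSM against B6. With 1 fit over all 11 groups, XS39-tel had 3, F1 at 5 dpp 0, F1 against B6-ChrXTMSM at 7 dpp 6, age in B6-ChrXMSM 1 and the age change of B6-ChrXTMSM 1. With no filter, F1 at 5 dpp had 1, age in B6-ChrXMSM 1 and the age change of B6-ChrXTMSM 3. The age change of B6-ChrXMSM had 1 call with medians subtracted and 2 with an intensity trend. The cause of these shifts was not tested. Single member values were counted as the same 992 times over the alternatives, as having lost the call 90 times and as turned 5 times. Relations among the F1 males that did not pass in either setting count as the same. They include *Foxo1* (r of 0.48 and -0.45), *Pou5f1* (0.33 and -0.41) and *Utf1* (-0.46 and 0.24), whose sign turned with Sertoli cell genes. An alternative in which a called probe set fell under the filter is in none of these counts. Same-numbered arrays did not deviate together (the lowest and highest correlations were -0.33 and 0.36), so the numbers do not pair the arrays; with the replicate number as a block there were 0 calls for XS39-tel, 0 for F1 at 5 dpp, 0 for F1 against B6 at 7 dpp, 1 for F1 against B6-ChrXTMSM at 7 dpp and 1 for age in B6-ChrXMSM. Among all probe sets, XS39-tel against B6 had 111 calls, 67 with no filter, 348 with 1 fit over all groups and 0 with the block; F1 against B6 had 90 at 5 dpp, 5 with the block, and 288 at 7 dpp, 509 and 42; F1 against B6-ChrXTMSM had 8 at 5 dpp, 31 with 1 fit, 17 with the trend and 2 with the block, and 53 at 7 dpp, 308 and 125. B6-ChrXTMSM against B6 at 5 dpp had 51, 79 with the trend and 20 with the block, age in B6-ChrXTMSM 142 and 81 with 1 fit, and the age changes of B6-ChrXMSM, B6-ChrXTMSM and F1 245, 903 and 2, against 3 and 381 with 1 fit and 1 with the trend. With single arrays left out, the counts among all probe sets ran from 146 to 365 for B6-ChrXMSM, 16 to 90 for B6-ChrXTMSM, 1 to 373 for XS39-tel and 15 to 129 for F1 against B6 at 5 dpp, 55 to 548 for F1 against B6 at 7 dpp, 1 to 23 and 17 to 322 for F1 against B6-ChrXTMSM at 5 and 7 dpp, 420 to 1209 for age in F1, and 147 to 327 and 0 to 9 for the age changes of B6-ChrXMSM and F1; the shares set beside the members' counts move with them. Among the F1 males, the mean of Sertoli cell genes in place of germ cell genes turned the sign of r for *Zbtb16* (-0.93), *Sox3* (-0.92), *Sall4* (-0.91), *Lin28a* (-0.88) and *Id4* (-0.81). The males lowest in germ cell genes were highest in Sertoli cell genes, so the turned sign is not a separate result. Signals near the filter limit the values of *Lin28a*, *Pou5f1* and *Utf1*. They also limit those of *Sall4* 1424153_s_at and *Zbtb16* 1427638_at, which supply some of the calls counted. The use of 3 arrays per group limits all intervals.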
